A study of Mus musculus with 6 samples.

Results

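Transcripts of 9 C-type lectin receptor genes were examined in macrophages sorted from mouse melanomas. Of these, 7 belong to the Dectin-2 cluster of chromosome 6 (Clec4n, Clec4d, Clec4e, Clec4a1, Clec4a2, Clec4a3 and Clec4b1), and Clec7a (Dectin-1) and Clec12a lie farther along the same chromosome. They were taken by gene symbol, 9 of the 39179 genes in the count table, and were selected on measured values: the group difference of several of them was known when the list was drawn up. Their levels and fold changes are therefore given as a description with no p-value, and whether a gene met the call rule of the table-wide fit is stated for description only.

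The 6 libraries were made from tumor-associated macrophages (TAMs), 3 from Ptgs-competent and 3 from Ptgs-deficient tumors. Both kinds of tumor were grown under the skin of C57BL/6 mice aged 8 weeks from the same BRAF-mutant melanoma line, either with intact Ptgs1 and Ptgs2, the genes of the cyclooxygenases that start prostaglandin synthesis, or with both genes disrupted by CRISPR. The macrophages were host cells and unedited in both groups, so Ptgs1 and Ptgs2 counts in them do not check the labels. Each library was a pool of tumors, sorted as CD45+ CD11b+ F4/80+ cells that lacked NK1.1 and Ly6G and had no or dim Ly6C, and p-values below measure the spread between these pools.

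C-type lectin receptors are surface proteins of myeloid cells that bind sugars and lipids of microbes and of dying cells. Dectin-2, MCL and Mincle, encoded by Clec4n, Clec4d and Clec4e, have no signaling motif of their own and work through the adaptor FcRγ (Fcer1g), which recruits the kinase Syk and the CARD9, BCL10 and MALT1 complex. Dectin-1, the receptor for fungal β-glucans, reaches Syk through its own cytoplasmic tail. DCIR (Clec4a2) and MICL (Clec12a) carry inhibitory motifs that recruit phosphatases.

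In the GRCm38 assembly the Dectin-2 cluster spanned 368.0 kb, chr6:122921848-123289870. Clec4n, chr6:123229843-123247021 on the plus strand, was followed after 15.1 kb by Clec4d, chr6:123262111-123275265, also on the plus strand. Clec4e, chr6:123281789-123289870, lay 6.5 kb beyond Clec4d on the minus strand. Clec4b1, chr6:123049962-123071555, began 179.9 kb before Clec4n. Clec12a and Clec7a lay together within 130.1 kb, 6052.8 kb beyond the cluster.

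Promoter sequences are shown for Clec4d, Clec4e and Clec4b1, because Clec4d and Clec4e are neighbours on opposite strands with unlike values, and Clec4b1 had the opposite direction to Clec4d within the same cluster. Each is the RefSeq sequence (GRCm38.p6) of the 250 bases before the annotated start, read 5′ to 3′ on the gene's strand. Clec4d is chr6:123261857-123262106 on the plus strand, Clec4e is chr6:123289872-123290121 on the minus strand and Clec4b1 is chr6:123049712-123049961 on the plus strand. Capitals mark matches to the motifs named after the sequences.
Clec4d: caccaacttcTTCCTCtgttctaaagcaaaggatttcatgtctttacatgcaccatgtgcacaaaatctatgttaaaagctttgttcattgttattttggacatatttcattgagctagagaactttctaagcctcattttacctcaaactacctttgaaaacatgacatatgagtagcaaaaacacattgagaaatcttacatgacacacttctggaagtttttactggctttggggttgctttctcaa
Clec4e: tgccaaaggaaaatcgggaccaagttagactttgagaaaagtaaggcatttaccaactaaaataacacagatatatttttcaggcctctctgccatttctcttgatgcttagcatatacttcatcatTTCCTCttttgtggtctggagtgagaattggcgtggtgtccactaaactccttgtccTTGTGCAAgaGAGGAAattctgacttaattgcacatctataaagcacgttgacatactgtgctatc
Clec4b1: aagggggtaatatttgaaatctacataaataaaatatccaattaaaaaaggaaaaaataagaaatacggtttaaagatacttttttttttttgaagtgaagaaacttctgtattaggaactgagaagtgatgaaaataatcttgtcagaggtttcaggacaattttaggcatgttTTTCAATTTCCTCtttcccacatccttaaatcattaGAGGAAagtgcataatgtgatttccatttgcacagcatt

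The capitals in Clec4d are a PU.1 core (GAGGAA, here on the other strand), a motif of a factor found throughout the myeloid lineage. Clec4e held 2 PU.1 cores and a C/EBP match (TTGCNNAA). Clec4b1 held 2 PU.1 cores and an interferon-stimulated response element (ISRE), whose match shared bases with the more distant PU.1 core. Each motif was searched on both strands in 10 promoters of 8 lectin genes, and the promoter of Clec4n was not analysed here. A PU.1 core was present in 8 of the 10, those of 7 genes, and 23.3% of 32851 promoters of that length held one. The exceptions were the Clec4a2 promoter and 1 of the promoters of Clec4a3. The promoters of Clec7a overlap almost fully and hold the same core, and those of Clec4a3 overlap in part. The 10 are therefore not separate sequences, and no enrichment was tested. The ISRE matched Clec4b1 (3.0% of all promoters), the C/EBP motif matched Clec4e and Clec12a (9.6%) and the AP-1 motif TGANTCA matched Clec12a (6.7%). The cyclic AMP response element TGACGTCA (1.5% of all promoters), its shorter form TGACG (17.8%) and the NF-κB motif (4.1%) matched none of the 10 promoters. A match describes letters and not a bound site.

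Library totals ran from 4431184 to 8760679 counts, and 7794 to 10714 genes had a count. Counts were expressed as CPM, counts relative to the library size after TMM scaling. They come from the 3′ end of transcripts, so CPM does not grow with transcript length. Levels of different genes are set side by side on that basis only. Other differences between genes in how reads were captured and assigned were not examined. A count of 3 in 1 library, taken as the detection floor, was worth 0.357 to 0.647 CPM, which covers counting error only. Mitochondrial genes took 6.79% of the counts in Ptgs-competent replicate 3 and 1.72% to 4.11% in the other libraries. All 12 macrophage markers had counts, with summed levels of 6706 to 18624 CPM in Ptgs-competent and 22127 to 26248 CPM in Ptgs-deficient libraries, and replicate 3 of the former was the lowest. Of the most abundant of them, Lyz2 overlapped between groups, at 5806 ± 2535 and 8057 ± 1885 CPM, and the complement gene C1qa did not, at 3518 ± 1912 and 6830 ± 164 CPM (SD, n = 3 per group).

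The receptors moved in different directions. Clec4n and Clec4d were about 5 times lower in the Ptgs-deficient group, Clec4b1 and Clec12a were higher, and Clec4e (Mincle) and Clec7a (Dectin-1) overlapped between groups. All 9 genes passed the filter on low counts, and in edgeR's quasi-likelihood fit 2 of the 9 met the call rule (adjusted p of 0.05 or lower and an absolute log2 fold change of 1.5 or more), both lower. Over all 8793 genes tested, 0.0569% were called lower and 0.159% higher. The groups did not overlap for 5 of the 9, against 19.0% of all genes tested. Because these values were in view when the genes were picked, nothing is read from either count. The median log2 fold change, Ptgs-deficient over Ptgs-competent, was 0.44 over the 9 and 0.018 over all genes tested. In bulk RNA, fewer cells that express a gene and less RNA per cell cannot be told apart.

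**Figure D1:**
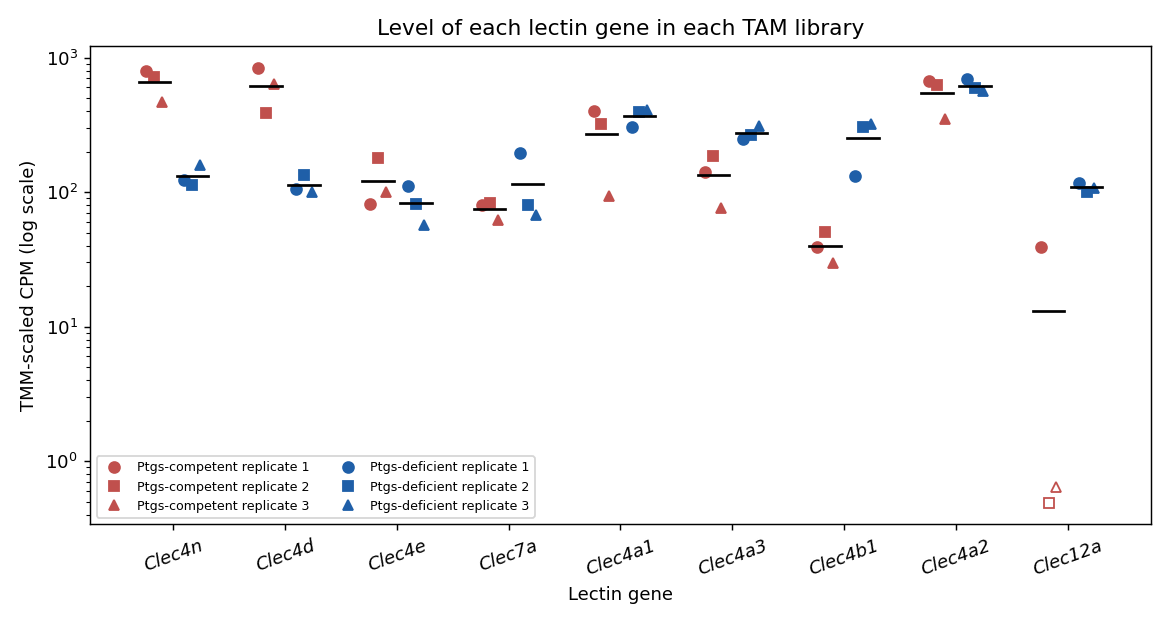
TMM-scaled CPM (log axis) of the 9 lectin genes, with a symbol for each of the 3 Ptgs-competent (red) and 3 Ptgs-deficient (blue) libraries and a black bar for the group mean, and with counts of 0 drawn as open symbols at the 3-count floor. Clec4n and Clec4d separate downwards in the Ptgs-deficient libraries, Clec4a3, Clec4b1 and Clec12a separate upwards, and the other 4 genes overlap.

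Among the receptors that pair with FcRγ, Clec4n (Dectin-2, which binds fungal mannans) had 793, 718 and 471 CPM in Ptgs-competent replicates 1, 2 and 3, from 4974, 4376 and 2183 counts. In Ptgs-deficient replicates 1, 2 and 3 it had 122, 113 and 159 CPM, from 670, 951 and 767 counts. The lowest Ptgs-competent library thus stood well above the highest Ptgs-deficient one. The means were 661 ± 169 and 131 ± 24.1 CPM (SD, n = 3 per group), a fitted log2 fold change of -2.33 ± 0.35 (SE).

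Clec4d (MCL, a receptor for the mycobacterial glycolipid cord factor) had 842, 384 and 634 CPM in the Ptgs-competent libraries. It had 106, 135 and 99.9 CPM in the Ptgs-deficient ones. The groups were again apart, but the order of the Ptgs-competent libraries differed from that of Clec4n, with replicate 2 the lowest for Clec4d and replicate 3 for Clec4n. The means were 620.2 ± 229 and 114 ± 18.7 CPM (SD, n = 3 per group) and the log2 fold change was -2.45 ± 0.38 (SE). The Clec4n to Clec4d ratio of counts, which needs no scaling between libraries, was 0.941, 1.87 and 0.742 in the Ptgs-competent and 1.15, 0.839 and 1.59 in the Ptgs-deficient libraries. These ratios overlapped between the groups, and the spread among the Ptgs-competent libraries was the wider one.

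The call of each gene was lost in most fits with a library left out. Over these 6 fits, 0 to 25 genes were called in the whole table, against 19 with all libraries. With Ptgs-competent replicate 2 left out, Clec4d was called and Clec4n was not. With Ptgs-competent replicate 3 left out, Clec4n was called and Clec4d was not, and with any other library left out neither was called. The fitted log2 fold changes in these 6 fits stayed between -2.48 and -2.17 for Clec4n and between -2.70 and -2.16 for Clec4d. Both were called in each of the 10 other settings tried with all 6 libraries. Dropping the fold threshold, among these, could not remove a call, and the newer quasi-likelihood form was chosen after seeing the data. Because the genes were picked with their values in view, nothing is read from these calls.

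Clec4e (Mincle, which binds cord factor and a protein released by dead cells) had 81.0, 180.4 and 99.6 CPM with Ptgs-competent tumors and 110.9, 81.0 and 57.3 CPM with Ptgs-deficient tumors. The ranges overlapped, and replicate 2 of the Ptgs-competent group was the highest of all 6. The means were 120.3 ± 52.8 and 83.1 ± 26.9 CPM (SD, n = 3 per group), with a log2 fold change of -0.53 ± 0.52 (SE). The Clec4d to Clec4e ratio was 10.4, 2.13 and 6.37 in the Ptgs-competent and 0.956, 1.67 and 1.74 in the Ptgs-deficient libraries. The neighbours therefore differed in their own ratio without overlap between groups, Ptgs-competent replicate 2 being the closest to the Ptgs-deficient libraries.

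Clec4b1 (DCAR, a further receptor that pairs with FcRγ) had 38.9, 50.2 and 30.0 CPM in the Ptgs-competent libraries. It had 133, 307 and 323 CPM in the Ptgs-deficient ones, so every Ptgs-deficient library lay above every Ptgs-competent one and replicate 1 was the lowest of its group. The means were 39.7 ± 10.2 and 254 ± 105 CPM (SD, n = 3 per group) and the log2 fold change was 2.68 ± 0.49 (SE). It did not meet the call rule in the quasi-likelihood fit, with the other scalings, with the stricter filter or with any single library left out. It met the rule by DESeq2, edgeR's likelihood ratio test and limma voom. The rule was also met without the filter on low counts, with the replicate block and with the newer quasi-likelihood form. The settings in which it was met called 77 to 328 genes over the whole table, against 19 in the quasi-likelihood fit. The Clec4n to Clec4b1 ratio was 20.4, 14.3 and 15.7 in the Ptgs-competent and 0.920, 0.368 and 0.492 in the Ptgs-deficient libraries. Clec4n counts thus exceeded Clec4b1 counts in every Ptgs-competent library and were the fewer in every Ptgs-deficient one.

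**Figure D2:**
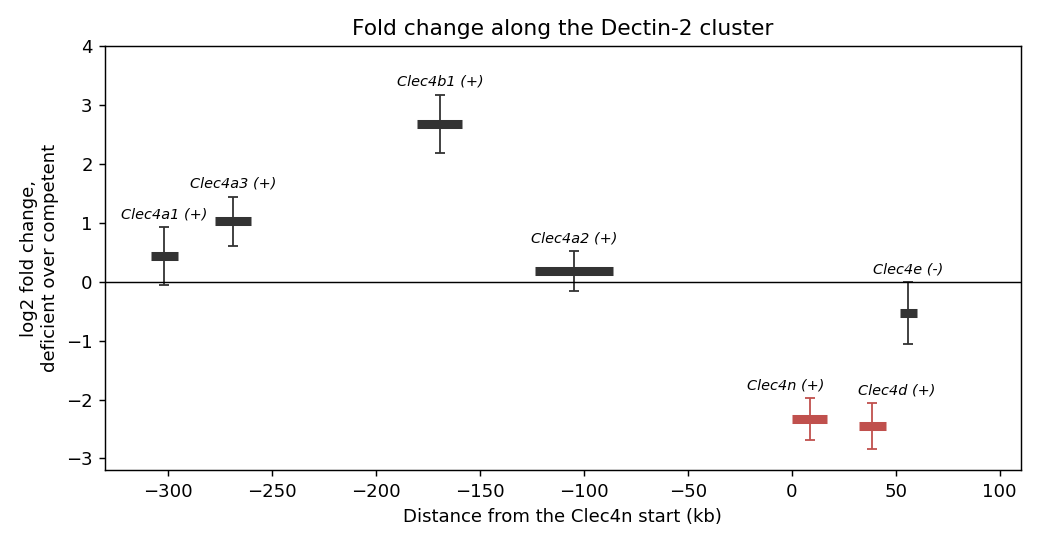
Fitted log2 fold change, Ptgs-deficient over Ptgs-competent, of the 7 Dectin-2 cluster genes against distance from the Clec4n start in kb, with thick bars for the gene bodies, thin bars for ± SE, the strand in brackets and called genes in red. Clec4n and Clec4d sit side by side at -2.33 and -2.45, while Clec4b1 is at 2.68.

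Clec7a (Dectin-1) had 80.5, 82.7 and 61.6 CPM with Ptgs-competent tumors and 197, 80.3 and 67.5 CPM with Ptgs-deficient tumors. Ptgs-deficient replicate 1 stood apart, and the other 5 libraries lay close together. The means were 75.0 ± 11.6 and 115 ± 71.4 CPM (SD, n = 3 per group). The log2 fold change of 0.62 ± 0.56 (SE) became 0.01 without Ptgs-deficient replicate 1, and the mean of that group became 73.9 CPM.

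Of the DCIR-related genes, Clec4a2 itself was abundant in both groups, at 668, 625 and 349 CPM with Ptgs-competent tumors and 694, 599 and 569 CPM with Ptgs-deficient tumors. The groups overlapped and Ptgs-competent replicate 3 was the lowest. The log2 fold change was 0.18 ± 0.34 (SE) and turned to -0.0097 without that library. The Clec4n to Clec4a2 ratio, an activating against an inhibitory receptor, was 1.19, 1.15 and 1.35 in the Ptgs-competent and 0.176, 0.189 and 0.279 in the Ptgs-deficient libraries. Clec4n counts exceeded those of Clec4a2 in all 3 of the former and in none of the latter. Clec4a2 overlaps a pseudogene, Gm44132, in the annotation, and the Clec4a genes are close copies, so reads could have been split or lost among them.

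Clec4a1 (DCIR4) had 401, 322 and 92.9 CPM with Ptgs-competent tumors and 303, 392 and 411 CPM with Ptgs-deficient tumors. The ranges overlapped and the low value was again Ptgs-competent replicate 3. The fitted log2 fold change was 0.44 ± 0.49 (SE). Clec4a3 (DCIR3) had 142, 187 and 75.9 CPM with Ptgs-competent tumors and 248, 264 and 312 CPM with Ptgs-deficient tumors. Its groups did not overlap, its log2 fold change was 1.03 ± 0.42 (SE), and it was not called. The Clec4a3 to Clec4a1 ratio overlapped between groups, at 0.354, 0.580 and 0.817 against 0.817, 0.674 and 0.758.

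Clec12a (MICL, an inhibitory receptor for uric acid crystals) had 245, 0 and 0 counts in the Ptgs-competent and 642, 840 and 521 counts in the Ptgs-deficient libraries. The 3 Ptgs-deficient libraries were close together, at 117, 100.03 and 108 CPM, whereas Ptgs-competent replicate 1 alone of its group gave a signal, at 39.0 CPM. The fitted log2 fold change of 3.05 ± 1.79 (SE) did not meet the call rule, met it with the newer form of the quasi-likelihood fit, and depends on how the zeros are treated. Over all libraries the Ptgs-deficient mean was 8.32 times the Ptgs-competent mean. Without Ptgs-competent replicate 1, the Ptgs-deficient mean was at least 190.2-fold higher than the mean 3-count floor of the other Ptgs-competent libraries. That bound leaves out the only library of its group with a signal.

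**Figure D3:**
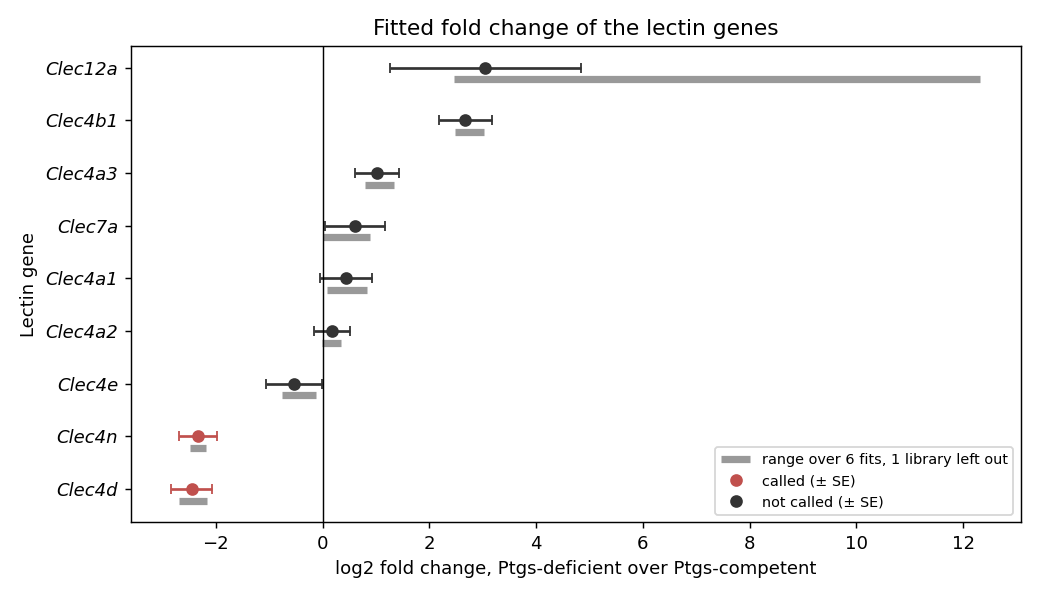
Fitted log2 fold change, Ptgs-deficient over Ptgs-competent, of each lectin gene (points, ± SE) with called genes in red and a grey band for the range over 6 fits that each left out 1 library. The bands of Clec4n and Clec4d stay below -2, that of Clec7a reaches 0.01, and that of Clec12a extends to the fit against libraries with 0 counts.

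The order of the lectins by mean level differed between the groups. In the Ptgs-competent group it ran Clec4n, Clec4d, Clec4a2, Clec4a1, Clec4a3, Clec4e, Clec7a, Clec4b1 and Clec12a. Only Clec7a and Clec4b1, of all neighbours in that order, had ranges that did not overlap. In the Ptgs-deficient group it ran Clec4a2, Clec4a1, Clec4a3, Clec4b1, Clec4n, Clec7a, Clec4d, Clec12a and Clec4e. There only Clec4a2 and Clec4a1 had ranges apart from each other. Neighbouring places are not firm: Clec4n was above Clec4d in 1 of the 3 Ptgs-competent libraries, and without replicate 2 of that group the mean of Clec4d, 738 CPM, exceeded that of Clec4n, 632 CPM.

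As a share of the summed CPM of the 9 genes, Clec4n was 26.6% ± 1.37 in the Ptgs-competent and 6.34% ± 1.07 in the Ptgs-deficient group (SD, n = 3 per group). Clec4d was 25.8% ± 10.03 and 5.49% ± 0.914 on the same basis. Clec4b1 was 1.63% ± 0.356 and 12.2% ± 4.94, and Clec4a2 was 21.8% ± 2.64 and 30.03% ± 3.70. Among the Ptgs-competent libraries the share of Clec4n varied less than that of Clec4d. The total over the 9 genes was 3086, 2549 and 1813 CPM with Ptgs-competent tumors and 2031, 2072 and 2105 CPM with Ptgs-deficient tumors, and these overlapped. The total without Clec4n and Clec4d, within the Dectin-2 cluster, was 1332, 1364 and 647 CPM against 1489, 1643 and 1671 CPM.

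**Figure D4:**
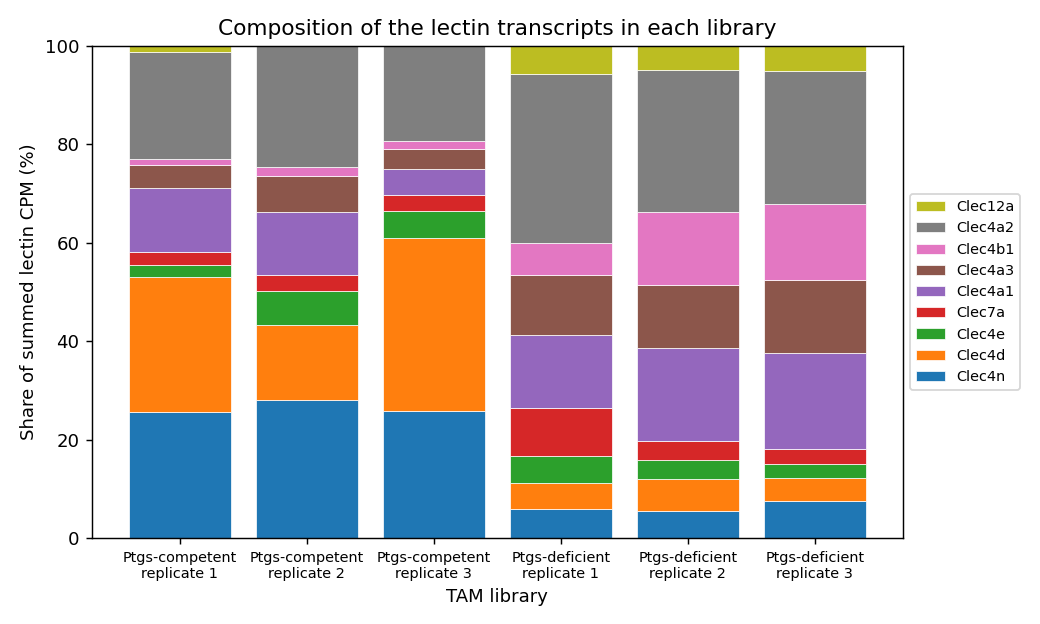
Share of the summed CPM of the 9 lectin genes (%) that each gene takes, stacked, in each of the 3 Ptgs-competent and 3 Ptgs-deficient libraries. Clec4n takes 25.7% to 28.2% in the Ptgs-competent and 5.47% to 7.54% in the Ptgs-deficient libraries, and Clec4b1, Clec4a3 and Clec12a take larger shares in the latter.

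The genes whose profile over the 6 libraries was most like that of Clec4n, by the root mean square difference of centred log2 CPM, were Rpl36a-ps1 (0.192), Prdm2 (0.271), Ddx39 (0.369), Fhod1 (0.371) and Dusp6 (0.382). Rpl36a-ps1 is a pseudogene with 30, 20 and 15 counts in Ptgs-competent replicates 1, 2 and 3 against 3 in each Ptgs-deficient library, the detection floor, so its values there follow library size. Dusp6 encodes a phosphatase of ERK kinases and Ddx39 an RNA helicase. Clec4d was the 18th nearest of 8792 genes, at 0.480, and Clec4e was the 851st. For Clec4d the nearest were Rpl36a-ps1 (0.361), Ddx39 (0.379), Prdm2 (0.428), Dpagt1 (0.434) and Pnpla2 (0.455), with Clec4n 8th. Each value rests on 6 libraries that share their group split and depth.

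The signaling chain that these receptors share was examined next, with a list drawn up by known role while earlier results of these data were known. Of 32 listed signaling genes, all were tested and 0 were called by edgeR's quasi-likelihood test, with 0 at an unadjusted p under 0.05 and 0 called by DESeq2, the likelihood ratio test or limma voom. The smallest adjusted p was 0.659, and 21 of the 32 were fitted higher against 11 lower. The median over the list was 0.28 on the log2 scale. Fcer1g, the adaptor of Dectin-2, MCL, Mincle and DCAR, had 1237, 715 and 764 CPM with Ptgs-competent tumors and 801, 1034 and 1010 CPM with Ptgs-deficient tumors. Its groups overlapped, with a log2 fold change of 0.067 ± 0.32 (SE, adjusted p = 0.9995 by edgeR) that was -0.076 without Ptgs-competent replicate 2. The adaptor was therefore present at 905 ± 288 and 948 ± 128 CPM (SD, n = 3 per group).

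Syk, the kinase common to both routes, had 177 ± 31.3 and 219 ± 54.9 CPM (SD, n = 3 per group) and a log2 fold change of 0.30 ± 0.37 (SE, adjusted p = 0.9995 by edgeR). Card9 was detected in 1 of 3 and 2 of 3 libraries, with 43, 0 and 0 counts in the Ptgs-competent and 0, 134 and 35 in the Ptgs-deficient libraries. The smallest p of the list belonged to Bcl10, the partner of CARD9, at a log2 fold change of 2.14 ± 1.03 (SE, adjusted p = 0.659 by edgeR). The inflammasome sensor gene Nlrp3 had 65.9 ± 26.3 and 132 ± 16.3 CPM (SD, n = 3 per group, adjusted p = 0.705 by edgeR). Its adaptor gene Pycard differed by 0.95 ± 0.50 on the log2 scale (SE, adjusted p = 0.741 by edgeR), and Plcg2, a phospholipase downstream of Syk, by 1.23 ± 0.69 (SE, adjusted p = 0.789 by edgeR).

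Of 18 listed outputs of the Syk and CARD9 pathway, 11 were tested and 0 were called by edgeR's quasi-likelihood test, with 2 at an unadjusted p under 0.05 and 1 called by each of DESeq2, the likelihood ratio test and limma voom. Of the 11, 6 were fitted higher against 5 lower, and the median over them was 0.023 on the log2 scale. The gene that the other tools called was Egr2, an early response transcription factor, with 67.7, 49.6 and 36.6 CPM with Ptgs-competent tumors and 161, 285 and 322 CPM with Ptgs-deficient tumors. Its groups did not overlap, and the log2 fold change was 2.32 ± 0.46 (SE, adjusted p = 0.0924 by edgeR). Cxcl2, a neutrophil chemokine, had a log2 fold change of 0.89 ± 0.35 (SE, adjusted p = 0.430 by edgeR). Nfatc1, a transcription factor gene, and Ccl4, a chemokine gene, overlapped between groups and differed by -1.36 ± 1.23 and 0.41 ± 0.38 on the log2 scale (SE, adjusted p = 0.9995 for each by edgeR). Il1b and Tnf, chosen after their values were seen, differed by -0.11 ± 0.45 and -0.46 ± 0.59 on the log2 scale (SE), and both overlapped between the groups. Il6 and Il10, also named after their values were seen, did not pass the filter on low counts. Il6 had 0 counts in every Ptgs-competent library and 39, 246 and 8 in the Ptgs-deficient ones. Il10 had 9, 1 and 0 counts against 0, 565 and 229.

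Other C-type lectins gave the surroundings. Among 18 further lectin and receptor genes of the same chromosome 6 clusters, 11 had a count, 4 were tested and 0 were called by edgeR's quasi-likelihood test, with 1 at an unadjusted p under 0.05. That gene was Klrk1, the receptor NKG2D, with 0 counts in the Ptgs-competent and 144, 36 and 78 counts in the Ptgs-deficient libraries, at least 28.9-fold higher against the mean 3-count floor (adjusted p = 0.376 by edgeR). It was called by DESeq2 and by the likelihood ratio test. Clec2d, Clec2g and Cd69 had at most 149 counts in any library, and Clec4a4 and Clec4b2, the closest copies of the Clec4a and Clec4b1 genes, had 0 counts throughout. Of 27 C-type lectin genes elsewhere in the genome, 11 were tested and 2 were called, both higher, and the median over the 11 was 1.81 on the log2 scale. They were the galactose-type lectin Clec10a, from 111 ± 35.6 to 1699 ± 474 CPM (SD, n = 3 per group, adjusted p = 0.00453 by edgeR), and Cd209g, with 1, 0 and 0 counts against 400, 656 and 396 counts (adjusted p = 0.0351 by edgeR). Without Ptgs-competent replicate 1 neither was called, and of the 6 fits with 1 library left out only that without Ptgs-competent replicate 3 called Cd209g. By limma voom Cd209g was not called (adjusted p = 0.0767) and its relative Cd209f was (adjusted p = 0.00505). Mgl2, a close relative of Clec10a, had a log2 fold change of 3.16 ± 0.61 (SE, adjusted p = 0.0821 by edgeR). DESeq2 and the likelihood ratio test called Mgl2, as did the fits without the filter, with the replicate block and with the newer quasi-likelihood form. Without Ptgs-competent replicate 2 it was called at 4.09. By limma voom, or with any other library left out, it was not called.

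Markers of other cells differed between the groups as well. Neutrophils and monocytes also express several of these lectins. The summed neutrophil markers were 986, 1020 and 792 CPM in the Ptgs-competent libraries against 619, 557 and 513 CPM in the others, without overlap and in the direction of Clec4n and Clec4d. Of the 9 tested, 7 were fitted lower and 2 higher, and 0 were called by edgeR, with 3 at an unadjusted p under 0.05. Of 16 neutrophil markers, 13 had a count, and Ly6g, Elane and Mpo were at 0 in every library. The most abundant, S100a8 and S100a9, differed by -1.07 ± 0.44 on the log2 scale (SE, adjusted p = 0.485 by edgeR) and -0.74 ± 0.36 (SE, adjusted p = 0.660 by edgeR). Other members, named after their values were seen, ran from -3.03 ± 2.25 for the collagenase gene Mmp8 and -2.33 ± 1.10 for the histidine decarboxylase gene Hdc to 2.11 ± 0.66 for Retnlg (SE), which was higher in every Ptgs-deficient library. The summed monocyte markers were 2511, 1786 and 1003 CPM against 5186, 6467 and 5716 CPM, in the direction of Clec4b1, Clec4a3 and Clec12a, as were the macrophage markers, of which 11 of 12 were fitted higher, 6 had an unadjusted p under 0.05 and 0 were called by edgeR, with a median of 0.94 on the log2 scale. Of the 8 monocyte markers tested 1, Plac8, was called higher (adjusted p = 0.0230 by edgeR). All 10 monocyte markers had a count, and of the 8 tested 6 were fitted higher and 2 lower. F13a1 and Ccr2 made up most of the sum, and Vcan went the other way without overlap, from 26.6, 85.2 and 31.0 CPM to 0, 17.1 and 0 CPM. The dendritic cell markers summed to 69.0 to 160.5 CPM and the melanoma markers to 49.2 to 99.6 CPM in all libraries, both overlapping, and the pigment cell genes Pmel, Dct, Tyr, Tyrp1, Mlana and Sox10 were at 0. Gpnmb made up most of the melanoma sum and overlapped between groups, whereas Mitf, a transcription factor of pigment cells that macrophages also express, did not overlap, with 12, 0 and 3 counts against 58, 372 and 88 counts (adjusted p = 0.703 by edgeR). Lymphoid markers summed to at most 1.07 CPM. Mast cell and basophil markers summed to 28.1 CPM in Ptgs-deficient replicate 1 and to at most 1.79 CPM in the other libraries. The part of these cells in the lectin values was not tested.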

How the data were processed

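Macrophages were sorted from pooled tumors and 3 libraries per group were sequenced from 800 pg of RNA with a kit for the 3′ ends of transcripts (QuantSeq FWD), without molecular identifiers stated. The authors deposited raw counts per gene. Per the study's methods, reads were trimmed with BBDUK, fqtrim and cutadapt, aligned with STAR to GRCm38 and assigned to genes with featureCounts, and the submitters' processing notes also name bcl2fastq and edgeR. Tool versions, strandedness and how multiply aligned reads were counted are not given in the sources used here.

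Here, the deposited counts of 39179 genes were filtered with filterByExpr (minimum count 10, minimum total 15), which left 8793, scaled by TMM and fitted by group with edgeR 4.0.16 (R 4.3.3) quasi-likelihood, two-sided, with Benjamini-Hochberg adjustment over all genes tested. DESeq2 1.42.0, edgeR's likelihood ratio test, limma 3.58.1 voom with quality weights, other scalings and filters, a replicate block and leaving out each library were the alternatives. Positions come from GENCODE M21, in which Clec7a has the biotype polymorphic_pseudogene. 4 listed genes were matched under older symbols by Ensembl ID.

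The lectins and all gene lists were chosen with earlier results of these data known. Named besides the 9 lectins were up to 5 tested lectins of the same clusters and up to 4 genes of each other list by smallest p, the adaptor Fcer1g with Syk and Card9, the 5 nearest profiles to Clec4n and to Clec4d, and the 2 most abundant markers of each cell type. Il1b, Tnf, Il6, Il10, Plac8, Vcan, Mmp8, Hdc and Retnlg fall outside this rule and were named after their values were seen. So do the genes named as having no count in any library.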

Additional observations from a re-analysis of the deposited data

How the results depend on the processing

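Of all genes tested, 19 were called. The count was 328 by DESeq2, 241 by edgeR's likelihood ratio test, 123 by limma voom, 252 without the filter on low counts and 249 with the newer form of the quasi-likelihood fit, an alternative chosen after seeing the data. Leaving out 1 library gave 0 to 25, the 0 being without Ptgs-competent replicate 1, where 1231 genes had an unadjusted p under 0.05. The number of the 9 lectins called lower was 2 in every setting with all libraries and 0 to 1 with 1 library left out. Other C-type lectins called numbered 2, and 5 by DESeq2 and by the likelihood ratio test, 4 without the filter and with the newer form, and 0 to 2 with 1 library left out. Pathway outputs called numbered 0, and 1 by DESeq2, the likelihood ratio test, limma voom, without the filter and with the newer form. Signaling genes called numbered 0 in every setting run.

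With the replicate block 77 genes were called over the whole table and 4 other C-type lectins, and Clec4b1 joined Clec4n and Clec4d. The labels give both groups the same replicate numbers, but same-numbered libraries did not deviate together (correlations of -0.049, -0.022 and -0.022 across genes), no library correlated best with its own number, and the numbers were not taken as pairs. The median log2 fold change of all genes, 0.018, was 0.39 by limma voom, 0.26 with the block, and 0.14 and 0.13 without Ptgs-competent replicate 1 and replicate 3.

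Directions turned for Clec4a2 (-0.0097 without Ptgs-competent replicate 3, range to 0.35 with 1 library left out), Fcer1g (-0.076 without Ptgs-competent replicate 2, range to 0.36), Cd69 (0.11 without Ptgs-competent replicate 2, range from -9.13, a fit that depends on zeros), Clec2d (-0.22 by limma voom and -0.13 without Ptgs-deficient replicate 1, range to 3.39) and the dendritic cell gene Wdfy4 (-0.029 by limma voom, -0.016 with the newer form, -0.33 without Ptgs-competent replicate 3 and -0.096 without Ptgs-deficient replicate 1, range to 0.65). None of these was called. The causes were not tested. Of 656 pairs of a named gene and an alternative, 588 kept direction and side of the threshold, 42 came to pass it and 17 ceased to. With 3 pools per group and PCR copies that cannot be told from molecules, levels of a few counts are uncertain. Larger counts also varied within a group. In the Ptgs-competent libraries Clec12a had 245, 0 and 0 counts and Cd209f had 30, 974 and 489. The common coefficient of variation between libraries in the edgeR fit was 1.26.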
